A study of Homo sapiens with 28 samples.

Results

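The regions described here are stretches of the genome of human embryonic stem cells (hESCs) that carried an H3K27me3 peak in every sorted fraction of the cell cycle and no H3K4me3 peak in any of them. They were chosen by the H3K27me3 and H3K4me3 peak lists alone, by merging the H3K27me3 peaks of the 4 fractions wherever they overlapped by at least 1 bp, which gave 36340 regions, keeping the 6551 with a peak in all 4 fractions, and removing those that any H3K4me3 peak overlapped. That left 2778 regions, 42.4% of the constant ones and 7.64% of all merged regions, and they are called K27-only constant regions below. The 3773 constant regions that an H3K4me3 peak did overlap are the closest comparison. Of these, 2086 had H3K4me3 in all 4 fractions and 703 in 1 fraction.

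The cells were hESCs with the Fucci reporters, fluorescent proteins whose amount follows the cell cycle, grown without serum or feeder cells in a medium whose additions were FGF2 at 8 ng/ml, Longr3 IGF-1 at 200 ng/ml, and both Activin a and Heregulin b1 at 10 ng/ml. They were sorted by reporter colour into early G1 (labelled DN), late G1 (KO2), S phase (AzL) and G2/M (AzH), and values are given in that order throughout. All groups shared the labelled cell line and the medium, and the labels name no further treatment. Each mark had 1 library per fraction, so no spread between replicates can be given, no test between fractions was possible, and intervals on shares are exact Clopper-Pearson 95% intervals that cover counting error only. The H3K27me3 lists held 23755, 31682, 19989 and 26480 peaks, and the number of reads behind them is unknown here.

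H3K27me3 is the histone mark laid down by Polycomb repressive complex 2, whose catalytic subunit is EZH2 or EZH1, and it accompanies gene silencing. In embryonic stem cells many promoters of developmental regulators carry it together with H3K4me3, a mark of active and poised promoters, and such promoters are called bivalent. Where H3K27me3 stands without H3K4me3, it often lies in wide blankets over silent developmental genes or in domains away from active promoters. The same lysine 27 can carry either acetylation, found at active promoters and enhancers, or trimethylation, but not both on one histone tail. Positions below are 1-based and are read as hg19. No annotation of that build was at hand, so regions are named by position, and no gene or sequence is assigned to them.

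The K27-only constant regions were mostly a few kilobases wide, and a small group of wide domains held much of their length. Their merged width had a median of 2325 bp (95% interval of the median 2225 to 2425) and quartiles of 1350 and 4425 bp, with a range from 225 to 121025 bp. In all they spanned 11.7 Mb. Constant regions with H3K4me3 had about the same width, with a median of 2400 bp. H3K27me3 regions without H3K4me3 that were listed in 3, 2 or 1 fractions had medians of 725, 400 and 150 bp. A wide region has more room for a peak in each list, so the width and the rule are tied, and these widths are a description. There were 611 K27-only constant regions of 5 kb or more, and 82 of 20 kb or more. The 82 wide domains were 2.95% of the regions and held 22.2% of the merged length, 2.59 Mb.

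The deposited peaks covered the most of this length in late G1 and the least in S phase. Covered length was 9.70, 11.04, 6.32 and 9.14 Mb, which is 83.2%, 94.7%, 54.2% and 78.5% of the merged length. Late G1 had the greatest covered length of the 4 fractions in 1674 regions (60.3%), and S had the smallest in 2241 (80.7%). From late G1 to S, 2743 regions (98.7%) became shorter, the median ratio per region was 0.429 and the ratio of summed lengths was 0.572. From S to G2/M, 2459 regions (88.5%) became longer. Constant regions with H3K4me3 were covered to 88.4%, 94.2%, 66.7% and 81.5% of their merged length. The most in late G1 and the least in S was thus not particular to the K27-only constant regions. Counts of regions that became shorter or longer were not made for other classes. H3K27me3 peaks chose the regions, so these counts describe the lists and test nothing. The whole S list was also the shortest, with 17.2 Mb covered against 27.02, 32.02 and 24.26 Mb in the others, and the part of list depth in the difference was not tested.

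A change of 2-fold or more in covered length was common among all H3K27me3 regions listed in both fractions of a step. From late G1 to S, 1631 K27-only constant regions (58.7%) lost at least 2-fold, beside 43.8% of all regions listed in both and 31.2% of constant regions with H3K4me3. Gains of at least 2-fold in that step were found in 4 K27-only constant regions (0.144%), beside a background of 1.08%. From S to G2/M, 1044 (37.6%) gained at least 2-fold, beside 24.1% of all regions, and 58 (2.09%) lost as much, beside 2.69%. From early to late G1, 390 (14.0%) gained, beside 14.5%, and 43 (1.55%) lost, beside 8.59%. From G2/M to early G1, 485 (17.5%) gained, beside 22.7%, and 230 (8.28%) lost, beside 7.44%. In constant regions with H3K4me3, 4.96% gained from early to late G1, 14.2% from S to G2/M and 15.6% from G2/M to early G1. Losses of at least 2-fold in these steps were 1.19%, 2.25% and 3.29%. The rule required an H3K27me3 peak in every list, and the background includes the K27-only constant regions themselves. Nothing is read from the gap between the regions and their background.

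The same stretch was often listed as several peaks, and how finely it was cut differed by fraction and by width. The regions were listed as 5803, 4584, 8074 and 7540 peaks, with mean peak lengths of 1671, 2408, 782 and 1213 bp. A single peak stood for the region in 51.5% (interval 49.7 to 53.4), 59.0% (57.1 to 60.8), 40.7% (38.8 to 42.5) and 34.8% (33.0 to 36.6) of cases. The late G1 share fell to 10.1% when regions within 1000 bp of each other were merged. In constant regions with H3K4me3 the shares were 62.9%, 59.9%, 38.2% and 42.01%. Late G1 thus cut both classes alike, and in early G1 and G2/M the regions without H3K4me3 were in 1 peak less often by count, a difference of lists that was not tested. Most gaps between the peaks of one region were short, with medians of 175, 100, 225 and 175 bp.

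**Figure D1:**
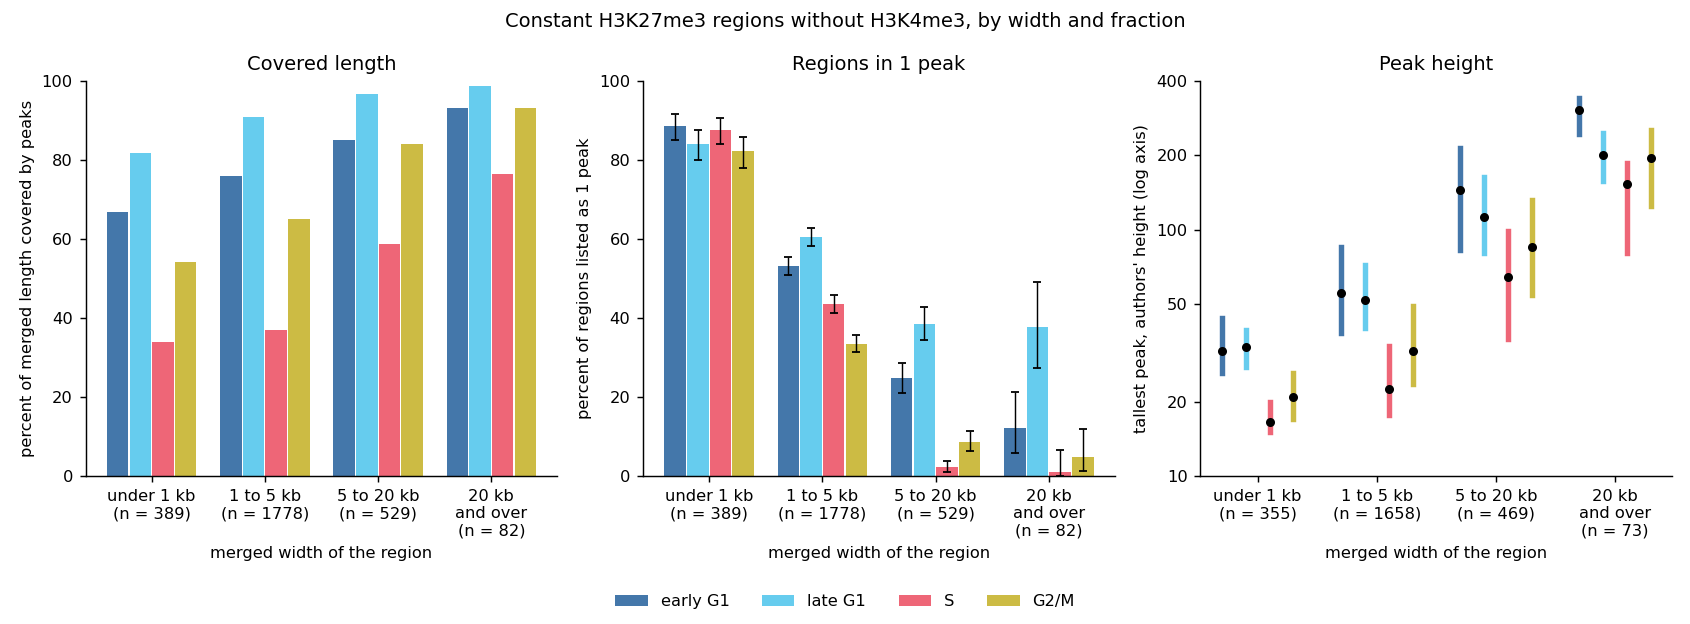
The horizontal axis gives the merged width of K27-only constant regions, and colours give the fraction. Bars show the percent of merged length covered (left) and the percent of regions in 1 peak with exact 95% intervals (middle). The right panel shows the median (dot) and quartiles (line) of the height of the tallest peak on a log axis. Height is the deposited sixth column, read here as a height. In regions of 20 kb or more late G1 covered 98.8% of the length and S 76.4%.

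Coverage was more complete in wider regions, most of all in S. Regions under 1 kb were covered to 66.8%, 81.7%, 34.0% and 54.2% of their length, and domains of 20 kb or more to 93.2%, 98.8%, 76.4% and 93.1%. Regions of 5 to 20 kb were in 1 peak in 24.8%, 38.6%, 2.27% and 8.70% of cases. Among the 82 domains of 20 kb or more, 10, 31, 1 and 4 were in 1 peak. The count of peaks per 10 kb of such a domain was 1.86, 0.882, 4.67 and 2.61.

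Nearly 50% of the merged length was listed in every fraction. Peaks of all 4 fractions shared 5.73 Mb, 49.2% of the merged length, and a further 2.11 Mb was covered in all fractions but S. Of the length of the S peaks, 99.1% fell inside late G1 peaks and 95.3% inside early G1 peaks. Late G1 and early G1 peaks covered 94.7% and 83.2% of the whole merged length. A high overlap is thus set in part by the lists that made the regions. Of the length that S left uncovered, 63.3% lay at the outer edges of the regions and the rest between peaks. The shared core took a median of 27.4% of a region, 12.8% in regions under 1 kb and 81.9% in domains of 20 kb or more. In 296 regions no base was covered in all 4 fractions, although each fraction had a peak somewhere in the merged stretch. Among 472 regions with more than 1 peak in every fraction, the peaks with the best score shared a base across all 4 fractions in 267 (56.6%).

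Peak heights were lower in the K27-only constant regions than in constant regions with H3K4me3. Height is the deposited sixth column, which has no header and was read here as a peak height of unknown scale. It is missing for the chromosomes coded 22 to 24, so 2555 regions have a height. The height of the tallest peak per region had medians of 58.7, 55.0, 24.1 and 34.2, against 94.9, 75.8, 39.9 and 49.2 in constant regions with H3K4me3. The ratios of these medians were 0.619, 0.725, 0.605 and 0.696. In regions of 5 kb or more, they were 0.802, 0.775, 0.688 and 0.736. Relative height, the tallest peak divided by the median over all constant regions of the same list, had medians of 0.746, 0.838, 0.746 and 0.808 in the K27-only constant regions. The class without H3K4me3 was lower by its median in all 4 lists. Heights of different lists are given side by side as deposited, and since their scale is unknown, an order of the fractions by height shows no change.

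Heights were greater in wider regions in every list. Across regions, Spearman's rho of width and height was 0.654, 0.732, 0.644 and 0.679 (n = 2555 regions, which share 1 library per value). Domains of 20 kb or more had median heights of 306, 201, 153 and 195, and regions under 1 kb had 32.3, 33.5, 16.7 and 20.9. Height is that of the tallest peak, and wide regions held more peaks to take it from. The median number of peaks was 4, 2, 9 and 5 in the wide domains, against 1 in each fraction under 1 kb. The part of this in the link of width and height was not tested. The share of K27-only constant regions whose tallest peak was under 2 times the fifth percentile of all peaks in its list was 29.1%, 16.1%, 56.1% and 34.5%. Over all peaks of the lists the shares were 69.1%, 73.5%, 69.1% and 72.5%. The tallest peak of a region was under this limit less often than a peak of the list at large. That comparison sets the tallest of a region's peaks against single peaks, and the rule required a peak in every list. Nothing is read from the gap. The order of the regions by height was most alike in late G1 and G2/M (rho 0.876) and least alike in early G1 and G2/M (rho 0.694).

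The 12 longest domains lay on 8 chromosomes, and 3 of them lay between chr22:22409451 and chr22:22796825. The longest was chr22:22675801-22796825, 121025 bp, listed as 9, 22, 127 and 34 peaks. Its covered length was 119, 118, 85.4 and 114 kb. The third and the fourth longest, chr22:22409451-22475075 (65625 bp) and chr22:22548226-22605500 (57275 bp), were also in many more peaks in S (59 and 24) than in the other fractions (2 to 18). No height is listed on chromosome 22.

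The other 9 of these domains have heights, and in 8 of them the peaks covered at least 77.2% of the stretch in each fraction. The second longest, chr1:40119451-40186250 (66800 bp), had heights of 283, 340, 353 and 398 and a covered length of 64.4, 66.2, 58.3 and 65.1 kb. chr17:46789451-46842700 (53250 bp) had heights of 309, 197, 180 and 251. chr10:118885751-118934450 (48700 bp) had heights of 321, 232, 163 and 235, and H3K4me1 peaks overlapped it in late G1, S and G2/M. Set against the median of the K27-only constant regions in the same list, the heights of these 3 domains were 3.58 to 14.6 times as high.

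The domains that follow by length showed the same coverage. chr12:48384351-48429575 (45225 bp) had heights of 309, 185, 170 and 196 and an H3K27ac peak in late G1. chr8:11533001-11575800 (42800 bp) was in 1 peak in early G1, with heights of 350, 642, 285 and 388. chr12:115100526-115143250 (42725 bp) was in 1 peak in both late G1 and S, with heights of 294, 759, 500 and 349. It was the single domain of 20 kb or more in 1 peak in S, and its S peak covered 41.6 kb. chr13:28522676-28565100 (42425 bp) had heights of 383, 275, 189 and 247, and chr4:174423726-174463550 (39825 bp) had heights of 310, 247, 191 and 208 with an H3K4me1 peak in S.

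One of the 12 stood apart. chr12:34486526-34528325 (41800 bp) was covered over 11.4, 41.8, 18.7 and 36.5 kb. Its peaks numbered 19, 3, 30 and 25, and its heights of 70.7, 136, 79.3 and 83.2 were 1.20 to 3.29 times the medians of the K27-only constant regions. Its early G1 and S peaks lay mostly in the part of the stretch with the lower coordinates, as the map of peaks in the longest domains shows. A shorter domain, chosen after its values were seen, was more uneven: chr19:8851201-8879025 (27825 bp) was covered over 400, 27425, 1425 and 24875 bp. Its heights were low throughout, at 24.4, 55.6, 19.1 and 42.1. It meets the rule through 2 short peaks in early G1.

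**Figure D2:**
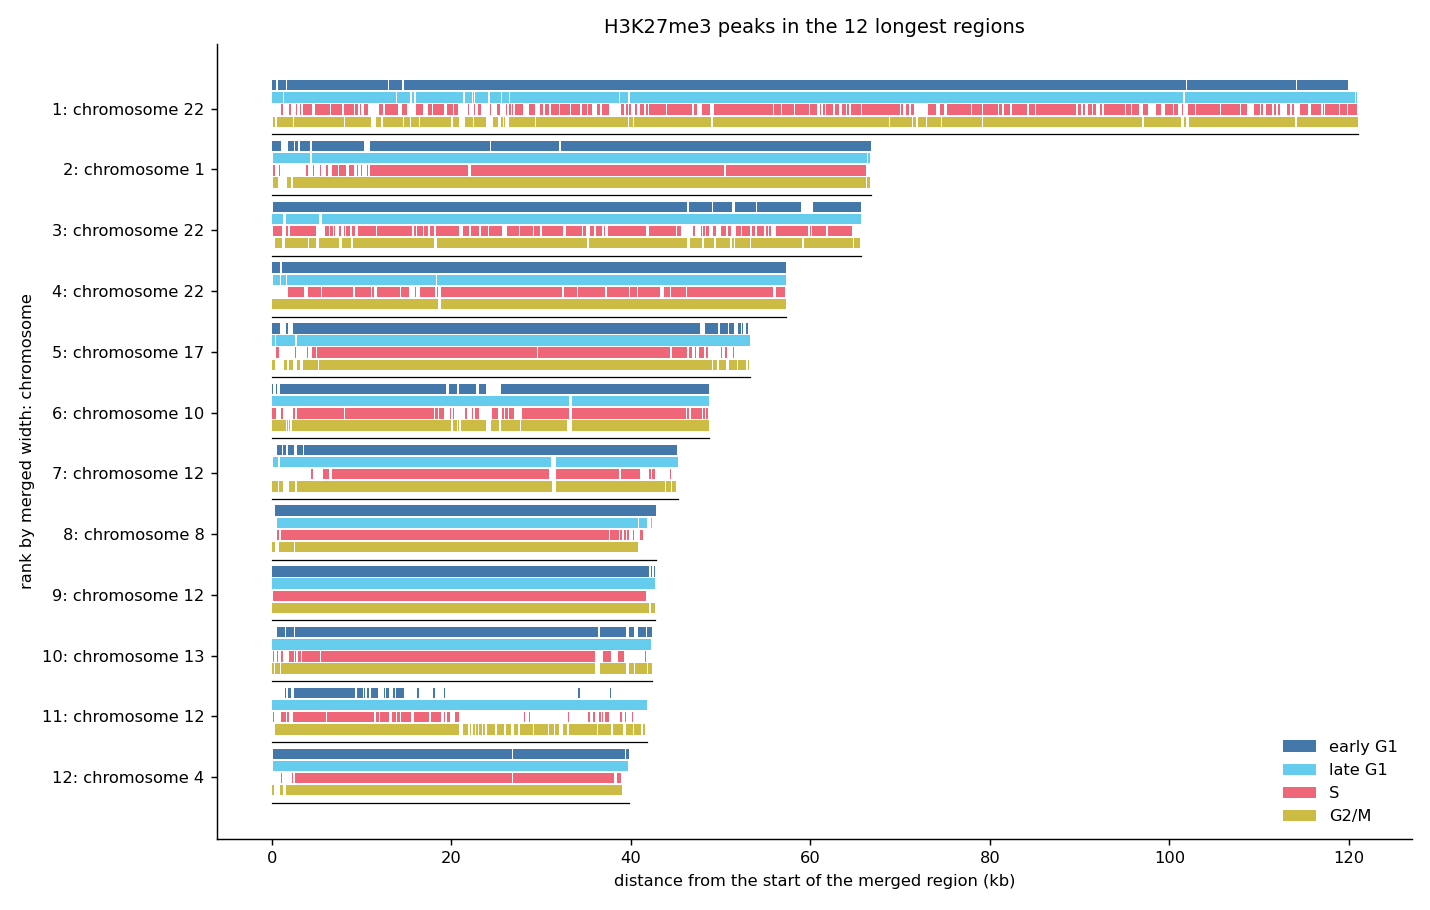
Each row is 1 of the 12 longest K27-only constant regions, the horizontal axis is the distance from its start in kb, the coloured bars are the H3K27me3 peaks of each fraction and the black line is the merged region. The chromosome 22 domains are cut into many pieces in S (127 in the longest), rank 9 is 1 peak in late G1 and S, and rank 11 is covered over 11.4 kb in early G1 against 41.8 kb in late G1.

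Of the 82 domains of 20 kb or more, 47 were covered to at least 80% in every fraction. Their median coverage was 96.3%, 99.2%, 82.9% and 94.0%, and the lowest was 1.44%, 93.7%, 5.12% and 62.4%. The 5 regions with the highest mean rank of height were chr7:1257426-1293000 (364, 432, 337 and 383), chr4:4849926-4878375 (354, 484, 306 and 408), chr8:11533001-11575800, chr7:156787926-156802650 (377, 318, 230 and 315) and chr19:1743851-1770450 (353, 328, 256 and 313). All 5 had at least 5.78 times the median height of the K27-only constant regions in every list. The regions cut into the most peaks were the 3 chromosome 22 stretches chr22:22675801-22796825, chr22:22475276-22514550 and chr22:22409451-22475075, then chr12:34486526-34528325 and chr9:66501651-66528975. The last had 13, 1, 33 and 26 peaks over 27325 bp.

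The regions lay somewhat farther from bivalent chromatin than less constant H3K27me3 regions did, but more of them lay right beside it. A bivalent region here is a merged H3K4me3 region that peaks of H3K4me3 and H3K27me3 both overlapped in at least 1 fraction, and 8055 of 32799 H3K4me3 regions (24.6%) were bivalent. The distance from a K27-only constant region to the nearest bivalent region had a median of 45.2 kb (95% interval of the median 41.1 to 49.5) and quartiles of 7.56 and 149.8 kb. The median was 77.2 kb when H3K27me3 regions within 1000 bp were merged, 72.2 kb for regions without H3K4me3 within 2500 bp, and 243.6 kb to the regions bivalent in all 4 fractions. Regions without H3K4me3 listed in 3, 2 and 1 fractions had medians of 37.2, 31.5 and 32.3 kb. Within 1 kb of a bivalent region lay 14.0% of the K27-only constant regions (12.8 to 15.4) and 7.86% of the less constant ones (7.53 to 8.19). Within 5 kb the order was turned, 21.6% (20.1 to 23.2) against 27.3% (26.7 to 27.8). Beyond 500 kb lay 6.12% against 4.76%. Bivalent regions hold H3K27me3 peaks themselves, and a region touched by H3K4me3 is removed by the rule, so these distances are set in part by how the classes were made.

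**Figure D3:**
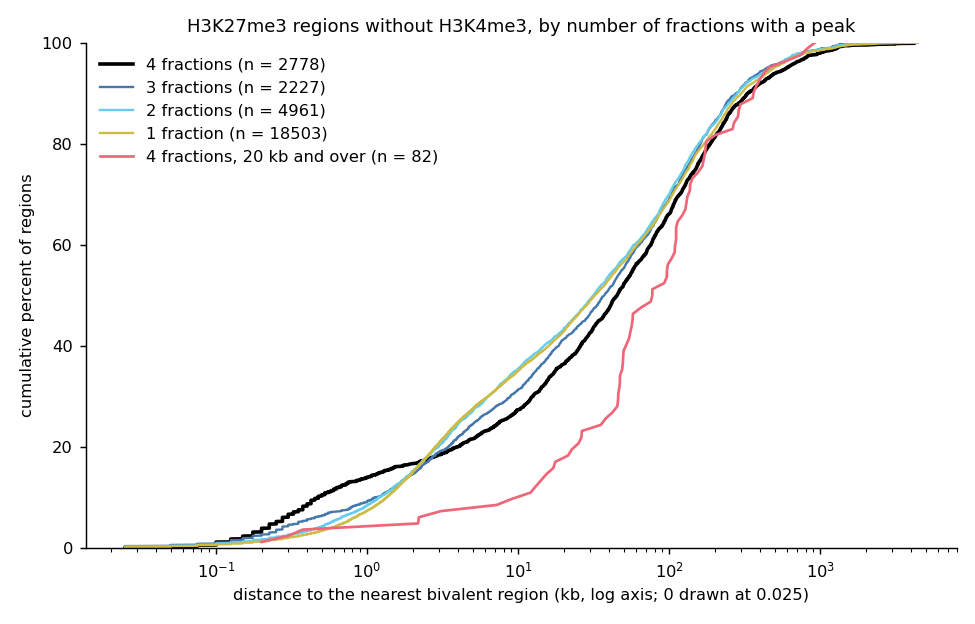
Cumulative percent of H3K27me3 regions without H3K4me3 (vertical axis) by the distance to the nearest bivalent region in kb (log axis), split by the number of fractions with an H3K27me3 peak. The line for 4 fractions lies above the others under 1 kb and below them from 5 kb on, and the 82 domains of 20 kb or more have a median of 77.3 kb.

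Wide domains lay farther from bivalent regions by their median than short ones, and many regions had close neighbours of their own kind. The median distance was 41.5 kb for regions under 1 kb, 40.5 kb for 1 to 5 kb, 55.6 kb for 5 to 20 kb and 77.3 kb for 20 kb or more (49.9 to 111). Of the 82 widest, 6 lay within 5 kb of a bivalent region. A wide region has more room to be touched by an H3K4me3 peak, and the rule removes it when it is. The link of width and distance is thus set in part by the rule, and nothing is read from it. The nearest H3K4me3 region of any kind was bivalent for 56.8% of the K27-only constant regions (55.0 to 58.7) and for 60.1% of the less constant ones. Another K27-only constant region lay within 1 kb of 1143 regions (41.1%) and within 10 kb of 1506 (54.2%), so regions counted apart were often pieces of one stretch.

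The regions at the extremes of this distance were the following. The 5 farthest regions lay on chromosome X, 4 of them between chrX:29238401 and chrX:29247275, at 4217 to 4226 kb from a bivalent region, and the fifth at chrX:30325326-30328875, at 3415 kb. They were 400 to 5350 bp wide. The 5 nearest adjoined a bivalent region or lay 25 bp from it, and were 750 to 2125 bp wide. Among them chr9:131934376-131936500 had heights of 76.1, 56.8, 21.6 and 43.4, and chr18:34832626-34833375 had 29.4, 29.8, 15.3 and 15.2.

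Some regions lay right at the border of the rule. An H3K4me3 peak lay within 25 bp of 19 K27-only constant regions and within 1 kb of 489 (17.6%). Just inside the rule, with an H3K4me3 peak adjoining, were chr1:2567726-2572200 (heights 30.8, 47.4, 13.6 and 29.7), chr1:23880351-23881025 (25.9, 35.3, 21.4 and 34.4) and chr3:158518126-158519300 (36.7, 39.5, 16.3 and 18.2). Just outside it, with 25 bp of H3K4me3 overlap, were chr4:128543026-128544200 (69.2, 23.8, 16.96 and 15.9), chr5:95995701-95997150 (55.7, 32.3, 21.05 and 13.8) and chr5:175789251-175792425 (105, 111, 40.6 and 82.4). In all, 178 constant regions were left out for at most 100 bp of H3K4me3 summed over the lists.

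H3K27ac and H3K4me1, which the rule did not use, were rare on these regions. An H3K27ac peak of any fraction overlapped 78 regions, 2.81% (2.23 to 3.49), against 226 constant regions with H3K4me3, 5.99% (5.25 to 6.80). An H3K4me1 peak overlapped 98, 3.53% (2.87 to 4.28), against 5.19% (4.51 to 5.95). Neither mark overlapped 2622 regions (94.4%). Both intervals of the regions without H3K4me3 end below those of the regions with it. The intervals count regions as separate, although 41.1% of the K27-only constant regions lay within 1 kb of another, so they may be too narrow. Whether intervals overlap, here and below, is a description and no test between classes. In less constant H3K27me3 regions without H3K4me3 the shares were 0.845% and 0.701%, but these regions are short. Per Mb of merged length they held 27.2 regions with H3K27ac, against 6.69 in the K27-only constant ones and 14.8 in constant regions with H3K4me3. An overlap of 1 bp is enough to be counted, which raises a rate per Mb in short regions, so neither measure sets the classes on equal terms.

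Over any fraction, the H3K27ac share was lower than in constant regions with H3K4me3 in each width class. The shares were 2.31% against 4.79% under 1 kb, 3.09% against 5.74% at 1 to 5 kb, 2.27% against 7.17% at 5 to 20 kb and 2.44% against 9.76% at 20 kb or more. The intervals overlapped in the first and the last class and not in the other two. By fraction, H3K27ac overlapped 41, 65, 14 and 27 of the K27-only constant regions, which is 1.48%, 2.34%, 0.504% and 0.972%, against 3.26%, 3.71%, 0.424% and 1.46% of constant regions with H3K4me3. The intervals did not overlap in early and late G1 and overlapped in G2/M and in S, where the share was slightly higher without H3K4me3. H3K4me1 overlapped 11, 23, 56 and 27 of the K27-only constant regions, which is 0.396%, 0.828%, 2.02% and 0.972%. In constant regions with H3K4me3 the shares were 0.557%, 0.875%, 3.63% and 1.56%, and the intervals overlapped in all fractions but S. By width, over any fraction, the H3K4me1 intervals overlapped in all classes but 5 to 20 kb (5.67% against 10.2%). Between fractions, the lists themselves differed in the same direction, with 30168, 32521, 10268 and 19525 H3K27ac peaks and 1878, 4017, 6280 and 6156 H3K4me1 peaks. H3K27ac was listed in 1 fraction in 38 of its 78 regions and in all 4 in 9. Among the 82 widest domains 2 had H3K27ac and 10 had H3K4me1.

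Chromosome 9 held far more of these regions than any other. It held 536 of 2778 (19.3%), against 5.27% of constant regions with H3K4me3 and 11.6% of all merged H3K27me3 regions. Of the 536, 422 lay within 10 Mb of the longest stretch of that chromosome without a HindIII site, chr9:47315559-65470571, with 104 on the left side from chr9:37647651 and 318 on the right side up to chr9:74766025. Such a stretch is a landmark taken from the 4C table, and sequence there was not at hand. These chromosome 9 flanks held 15.2% of the K27-only constant regions, against 1.51% of constant regions with H3K4me3 and 8.27% of all H3K27me3 regions. Of the 4216 merged H3K27me3 regions on chromosome 9, 3007 lay in the flanks, so crowding there was not particular to the K27-only constant regions. On the other 19 chromosomes with a stretch of this kind, the same flanks held 254 of the regions (9.14%), against 11.2% of constant regions with H3K4me3 and 12.4% of all H3K27me3 regions.

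**Figure D4:**
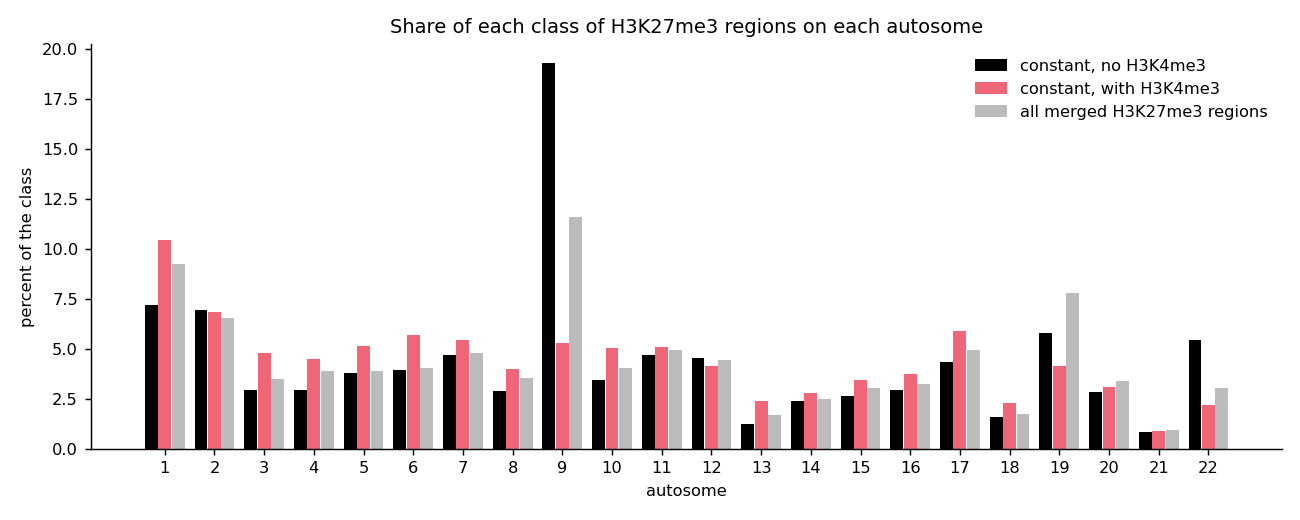
Bars give the percent of each class of H3K27me3 regions (vertical axis) that lies on each autosome (horizontal axis). Chromosome 9 holds 19.3% of the K27-only constant regions against 5.27% of constant regions with H3K4me3, and chromosome 22 holds 5.44% against 2.20%.

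The regions that flank the stretch on chromosome 9 were lower and closer to bivalent regions than the rest. Their median heights were 38.9, 42.5, 19.2 and 25.9, against 67.0, 59.4, 26.1 and 38.6 in the regions outside these flanks and outside the chromosome 22 cluster described next. Their median width was 1950 bp against 2375 bp. No H3K27ac peak overlapped any of the 422, which allows a share of up to 0.711% by 3 counts of the total, against 3.40% in the rest, and H3K4me1 overlapped 2. Their nearest H3K4me3 region was bivalent in 87.4% of cases against 50.6%. The ratio of summed covered length, S over late G1, was 0.468 against 0.593.

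Several wide domains on chromosome 9 were alike in length and in heights, which was seen after their values were read. chr9:42844426-42878175 was 33750 bp wide with heights of 72.6, 114, 50.1 and 84.9. chr9:67269176-67302900 was 33725 bp wide with heights of 64.0, 113, 45.4 and 71.8. chr9:69631226-69664875 was 33650 bp wide with heights of 64.8, 108, 44.8 and 76.7. The 3 lie on both sides of the stretch and differ by at most 100 bp in width, and within each fraction their heights lay within a narrow range (64.0 to 72.6, 108 to 114, 44.8 to 50.1 and 71.8 to 84.9). Whether reads from near-identical sequence were shared between them was not tested. The 12 chromosome 9 domains of 20 kb or more had median heights of 130, 114, 55.9 and 82.5, against 314, 216, 164 and 223 for those on other chromosomes.

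The chromosome 22 cluster was a string of 65 regions between chr22:22308801 and chr22:23285125. They held 0.736 Mb, with a median width of 5975 bp, and 8 of them were 20 kb or more. Neither H3K27ac nor H3K4me1 overlapped any of the 65, which allows a share of up to 4.62%, above the 3.40% and 4.19% found outside this string and the chromosome 9 flanks. The nearest bivalent region was at a median of 179 kb. The string was in many pieces in S, with 9.27 peaks per 10 kb against 3.60, 2.56 and 6.74 in the other fractions, and the ratio of summed covered length, S over late G1, was 0.499.

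Restriction sites inside the regions were read more often in 4C than the average site on chromosomes other than the viewpoint's. 4C counts ligation products between a viewpoint, here beside the GATA6 or the SOX17 promoter, both genes of transcription factors of endoderm, and every other HindIII site. The libraries held 13936585, 12974772, 8905806 and 17076409 reads from GATA6 and 10719725, 10675688, 7491195 and 15566252 reads from SOX17. From GATA6, a read was found at 22.3%, 26.5%, 26.7% and 14.0% of the 2505 sites in the regions, against 7.28%, 8.26%, 9.18% and 5.17% of 814852 sites in all. From SOX17 it was found at 18.0%, 17.2%, 19.6% and 8.78% of 2494 sites, against 7.55%, 6.44%, 8.23% and 4.37% of 794436. The regions were above the average in all 8 libraries. Mean reads per site in the K27-only constant regions were 3.81 to 4.52 times the average from GATA6 and 3.38 to 4.00 times from SOX17. The median site, in the regions and over all sites, had 0 reads in each library, so the means rest on a minority of sites. In constant regions with H3K4me3 the means were 2.80 to 3.43 and 2.43 to 3.10 times the average, lower in each of the 8 libraries. A read was found at 9.63% to 20.3% of their sites from GATA6 and 6.39% to 17.1% from SOX17. Less constant H3K27me3 regions without H3K4me3 were also above the average in all 8 libraries, by share of sites read and by mean. Their means were 1.61 to 2.38 times the average from GATA6 and 1.14 to 1.79 times from SOX17. An excess over the average site was thus not particular to the K27-only constant regions.

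The share of sites read was highest in the wide domains. In domains of 20 kb or more, a read was found at 36.5% (32.4 to 40.8), 40.6% (36.4 to 44.9), 41.4% (37.2 to 45.7) and 21.9% (18.5 to 25.7) of 534 sites from GATA6. From SOX17 the shares were 28.1% (24.3 to 32.2), 29.3% (25.4 to 33.4), 34.4% (30.4 to 38.6) and 13.7% (10.9 to 16.9) of 526 sites. In regions of 1 to 5 kb they were 9.79% to 20.2% from GATA6 and 5.86% to 12.2% from SOX17. With chromosomes 9 and 22 left out, the wide domains were read at 22.8% to 43.8% of 386 sites and 15.1% to 37.6% of 378 sites. Constant regions of 20 kb or more with H3K4me3 were read at 15.1% to 34.2% and 11.9% to 32.6% of their sites. The regions held 2.18 sites per 10 kb, against 2.91 across the chromosomes outside the longest site-free stretches. Sites of one domain share their surroundings and the reads are PCR products without molecular identifiers, and the part of site density in this excess was not tested.

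**Figure D5:**
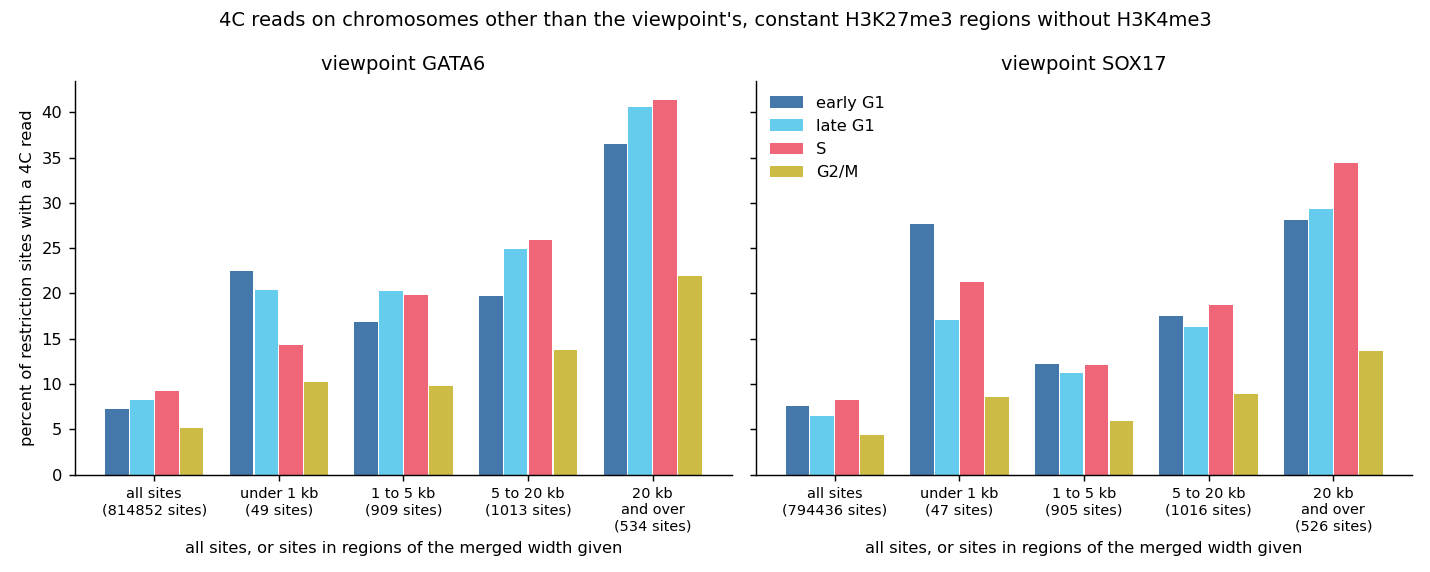
Bars give the percent of HindIII sites with at least 1 4C read (vertical axis) on chromosomes other than the viewpoint's, for all sites and for sites in K27-only constant regions by merged width (horizontal axis), with colours for the fraction. Domains of 20 kb or more reach 41.4% from GATA6 and 34.4% from SOX17 in S, against 9.18% and 8.23% of all sites, and the bars under 1 kb rest on 49 and 47 sites.

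The 12 longest domains were unequal in this readout. From GATA6, chr17:46789451-46842700 was read at 7, 10, 9 and 4 of its 16 sites, and chr13:28522676-28565100 at 8, 7, 8 and 3 of its 10 sites. The second longest, chr1:40119451-40186250, was read from GATA6 at 1, 0, 0 and 0 of its 14 sites, with 1 read in all, and from SOX17 at 4, 4, 4 and 2, with 869, 571, 259 and 524 reads. The uneven domain chr12:34486526-34528325 was read at no more than 1 of its 11 sites in each of the 8 libraries. chr8:11533001-11575800 is on the SOX17 viewpoint's own chromosome and was read there at 7, 6, 7 and 6 of 7 sites.

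Few of the regions were near the viewpoints themselves. The GATA6 viewpoint, taken as the site with the most reads, is chr18:19758344, and the nearest K27-only constant region was chr18:19925976-19931375, 168 kb away. It was 5400 bp wide with heights of 233, 139, 102 and 87.8, and its 1 site held 85793, 80610, 60869 and 94559 reads. The SOX17 viewpoint is chr8:55373264, and the nearest region, chr8:56015651-56016350, was 642 kb away, 700 bp wide and without a site.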

How the data were processed

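The series holds 28 samples, grouped by their labels: 16 ChIP libraries, 4 inputs, which were not analysed here, and 8 4C libraries, with 1 library per group. The submitters' processing notes name Bowtie 0.12.7, mm9 and hg19 and give them no role. The peak caller, its settings and any use of inputs were not given in the sources used here. Each ChIP file was deposited as 1 list of peaks on a 25 bp grid. The deposited signal column (column 6), used as height, has no stated scale, and its zeros, which include every peak on the chromosomes coded 22 to 24, were treated as missing. The deposited score column was negative, and more so for taller peaks. The deposited 4C table gave counts of reads for 837622 HindIII sites, with the rule for assigning reads not stated.

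Peaks were merged with Python 3.11.15, numpy 2.4.6, pandas 2.3.3 and scipy 1.17.1 (figures: matplotlib 3.10.9). Merged width runs from the first to the last base of a region, and covered length counts bases under peaks. Intervals on shares are exact Clopper-Pearson at 95%, and those on medians are order statistics. The code that merges, overlaps and measures gaps between genomic stretches was tested on simulated stretches. The code for the 95% intervals was not. No p-value was computed. The members and the lists were chosen with earlier results of these data known. Regions were named by rule (the 12 longest, the 5 tallest by mean rank, the 5 with the most peaks, the 5 farthest from and 5 nearest to bivalent regions, the 3 nearest to each viewpoint, 3 on each side of the H3K4me3 border), and the text gives some of them. Alternatives were merging within 1000 bp, no H3K4me3 within 2500 bp, stricter or equal lists, peaks of at least 500 bp, regions without H3K27ac and H3K4me1, bivalence in all fractions, other height measures, and chromosomes 9 and 22 left out, which was added after the data were seen.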

Additional observations from a re-analysis of the deposited data

How the results depend on the processing

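With 1 library per mark and fraction, depth and replicate spread are unknown, shares carry counting error alone, and heights have no stated scale. No paired analysis was possible because each group has 1 library and the labels carry no replicate numbers. Of 54 values recomputed under an alternative, 27 stayed within their counting interval or within 1.5 times for the number of regions, or at the same 3 digits for the ratio of lengths; the others follow. S covered less length than late G1, by the ratio of sums, in each alternative run for it, and relative heights stayed under 1; comparisons with other classes of regions were not recomputed. Merging regions within 1000 bp gave 1414 regions with a median width of 5475 bp, an S to late G1 ratio of 0.493, 10.1% in 1 late G1 peak, a distance of 77.2 kb to bivalent regions and 4.74% with H3K27ac. Without H3K4me3 within 2500 bp, the median width was 2575 bp, 56.2% were in 1 peak and the distance was 72.2 kb. With the upper 50% of each list by score, there were 1663 regions of 3475 bp, a ratio of 0.587 and 67.8% in 1 peak. Equal numbers of peaks gave a ratio of 0.580 and 65.9% in 1 peak. Peaks of at least 500 bp gave 1265 regions of 4200 bp, a ratio of 0.613 and 71.1% in 1 peak. Leaving out regions with H3K27ac or H3K4me1 gave a ratio of 0.560. With bivalent regions limited to those bivalent in all 4 fractions, the distance was 243.6 kb. With the score in place of height, relative values were 0.710 in early G1 and 0.797 in late G1. With chromosomes 9 and 22 left out, which was added after the data were seen, the ratio of lengths was 0.594 and relative heights were 0.795 in early G1 and 0.861 in both late G1 and G2/M. Mean 4C reads per site were then 3.71 to 4.57 times the average over both viewpoints. Alternatives that merge or drop peaks change the regions themselves by construction; the cause of the other shifts was not tested.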
